A study of Mus musculus with 6 samples.

Results

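The genes described here encode the extracellular matrix of the liver, the enzymes that cut it and the integrins by which cells hold on to it. They were taken by symbol alone: every gene of the deposited expression table named as a collagen chain, or whose symbol begins with the stem of a laminin, nidogen, perlecan, fibrillin, fibulin, latent TGF-beta binding protein, lysyl oxidase, emilin, microfibril-associated protein, FREM protein, matrix metalloproteinase, metalloproteinase inhibitor, ADAM or ADAMTS protein or integrin chain, among others. The rule found 39 of the 1834 genes in the table. In the mouse annotation 216 genes fit the rule, and the other 177 were not analysed here. Some genes are taken by name without being a matrix component, such as Mfap3l, and these are described as what they are.

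Liver RNA was sequenced from 2 groups of mice kept on the same diet, which the sources used here do not name, in a study whose title concerns metabolic dysfunction-associated steatotic liver disease. The control group had the genotype label WT and the treatment AAV-GFP, an adeno-associated virus carrying green fluorescent protein (3 libraries). The other group had the genotype label Ly6d overexpression and the treatment AAV-Ly6d, the same kind of virus carrying Ly6d, a small lipid-anchored surface protein (3 libraries). The labels give no strain, age, sex, vector promoter or dose. Nor do they state whether each library is a different animal. A p-value here is therefore a measure of how these samples scatter, and that scatter may be technical.

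Collagens of the fibrillar kind form the ropes of the liver's connective tissue, while laminins, nidogen and perlecan build the basement membranes around vessels and ducts. In the liver these proteins come largely from hepatic stellate cells, fibroblasts and endothelial cells, and their build-up is known as fibrosis. Metalloproteinases and ADAMTS enzymes cut the matrix, TIMP proteins hold those enzymes in check, and integrins bind matrix proteins outside the cell and the actin cytoskeleton inside it.

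Most of these genes had lower RNA levels in the AAV-Ly6d livers. Of the 39 genes, all of which were tested, 26 fell, 2 rose and 11 did not pass (limma, adjusted p under 0.05). Over all tested genes, 1780 in number, 28.0% fell and 15.9% rose. The median log2 fold change was -1.17 for the 39 genes and -0.67 for all tested genes, where a negative value means lower in AAV-Ly6d. The second median mixes 1080 genes lower and 700 higher by the fitted value, so it is no neutral size of change. Levels differed too: the median of the mean values was 75.7 for the 39 genes and 209 for all tested genes. The 11 of the 39 at or above the latter had a median log2 fold change of -1.16. The part of level in the fold changes was not tested. By the fitted value 36 of the 39 were lower, as were 60.7% of all tested genes. In 31 of the 39 every AAV-Ly6d library lay below every AAV-GFP library, which held for 49.3% of the tested genes. The reverse order was found for 3 genes, Col11a2, Itga2 and Itga10, and for 35.2% of the tested genes. The groups overlapped for Col1a1, Col1a2, Timp3, Col16a1 and Col6a5. In bulk tissue, fewer cells of a type and less RNA per cell cannot be told apart.

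**Figure D1:**
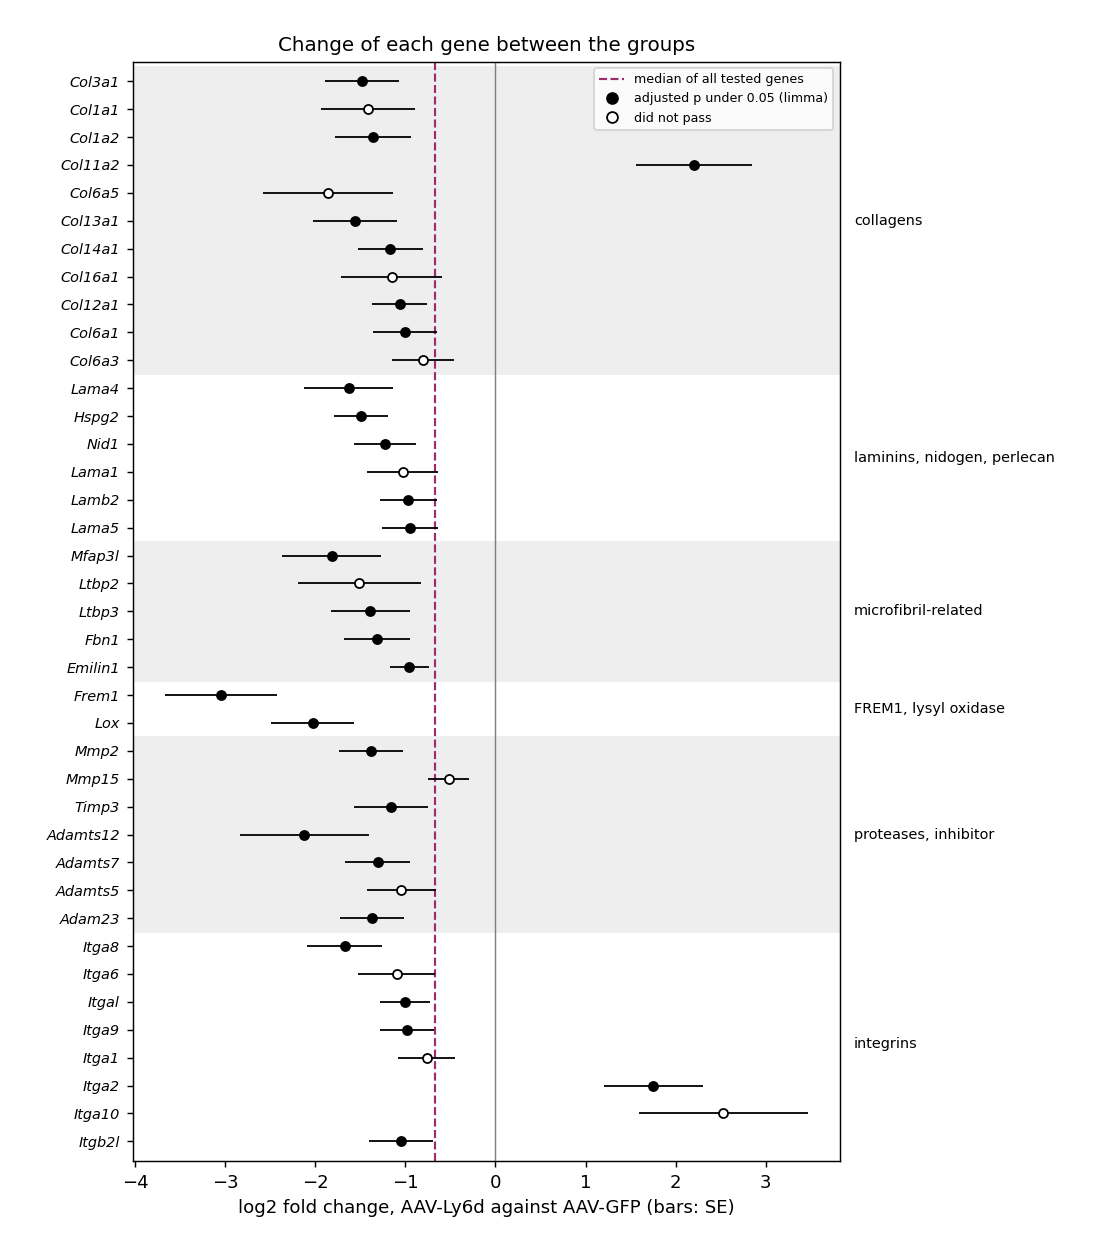
Log2 fold change of each of the 39 genes (AAV-Ly6d against AAV-GFP, x axis), with bars for the standard error; filled points passed the limma test at an adjusted p under 0.05, open points did not. Most points lie left of the dashed line at -0.67, the median of all tested genes, lower and higher together, and 3 genes lie right of 0.

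These calls stand close to the threshold. The table holds only part of the genes, and by DESeq2 on the recovered reads none of its tested genes had an unadjusted p above 0.0693. It was therefore read as a choice of genes that differ between these same libraries, in which adjusted p-values understate the error. Adjusted p-values of the 39 genes ran from 0.0287 to 0.0800, and 26 of them lay between 0.03 and 0.05, as did 710 of the tested genes. When the p-values were adjusted over the 55450 genes of the annotation, limma called 0 of the 39 (36 had an unadjusted p under 0.05). DESeq2 on the recovered reads, adjusted in that way, called 2, Hspg2 (adjusted p = 0.0112) and Emilin1 (adjusted p = 0.0217), both lower, beside 4.61% of the tested genes called lower. Single libraries also decided many calls. Leaving out AAV-GFP replicates 1, 2 and 3 in turn left 1, 16 and 4 of the 39 called by limma, beside 134, 607 and 139 of all tested genes. Leaving out AAV-Ly6d replicates 1, 2 and 3 in turn left 0, 9 and 0, beside 0, 104 and 19 of all tested genes. In the fits without replicate 1 or 3 of that group 24 and 21 of the 39 had an unadjusted p under 0.05. Counts by unadjusted p are given without their shares over all tested genes. In a table read as a choice of genes that differ, they do not set the 39 apart.

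Values are normalised read counts, listed from here on in the order of replicates 1, 2 and 3, and 1 read was worth 0.844 to 1.09 of them. Rises and falls are differences of log2(value + 1). The reads of all genes in the table summed to between 3248078 and 4359932 per library. The 39 genes took 7796, 9493 and 9312 of these reads in AAV-GFP and 3343, 5266 and 3375 in AAV-Ly6d, which is 0.240 to 0.276% against 0.0767 to 0.132%. Ly6d itself stood at 56.1, 9.68 and 182 in AAV-GFP and at 3181, 1799 and 3275 in AAV-Ly6d, so every library followed its label. AAV-GFP replicate 2 stood apart from the other libraries of its group: of the 1080 tested genes with a lower fitted value, it was the highest AAV-GFP library in 75.3%. Without it the median log2 fold change was -1.10 for the 39 genes and -0.40 for all tested genes.

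**Figure D2:**
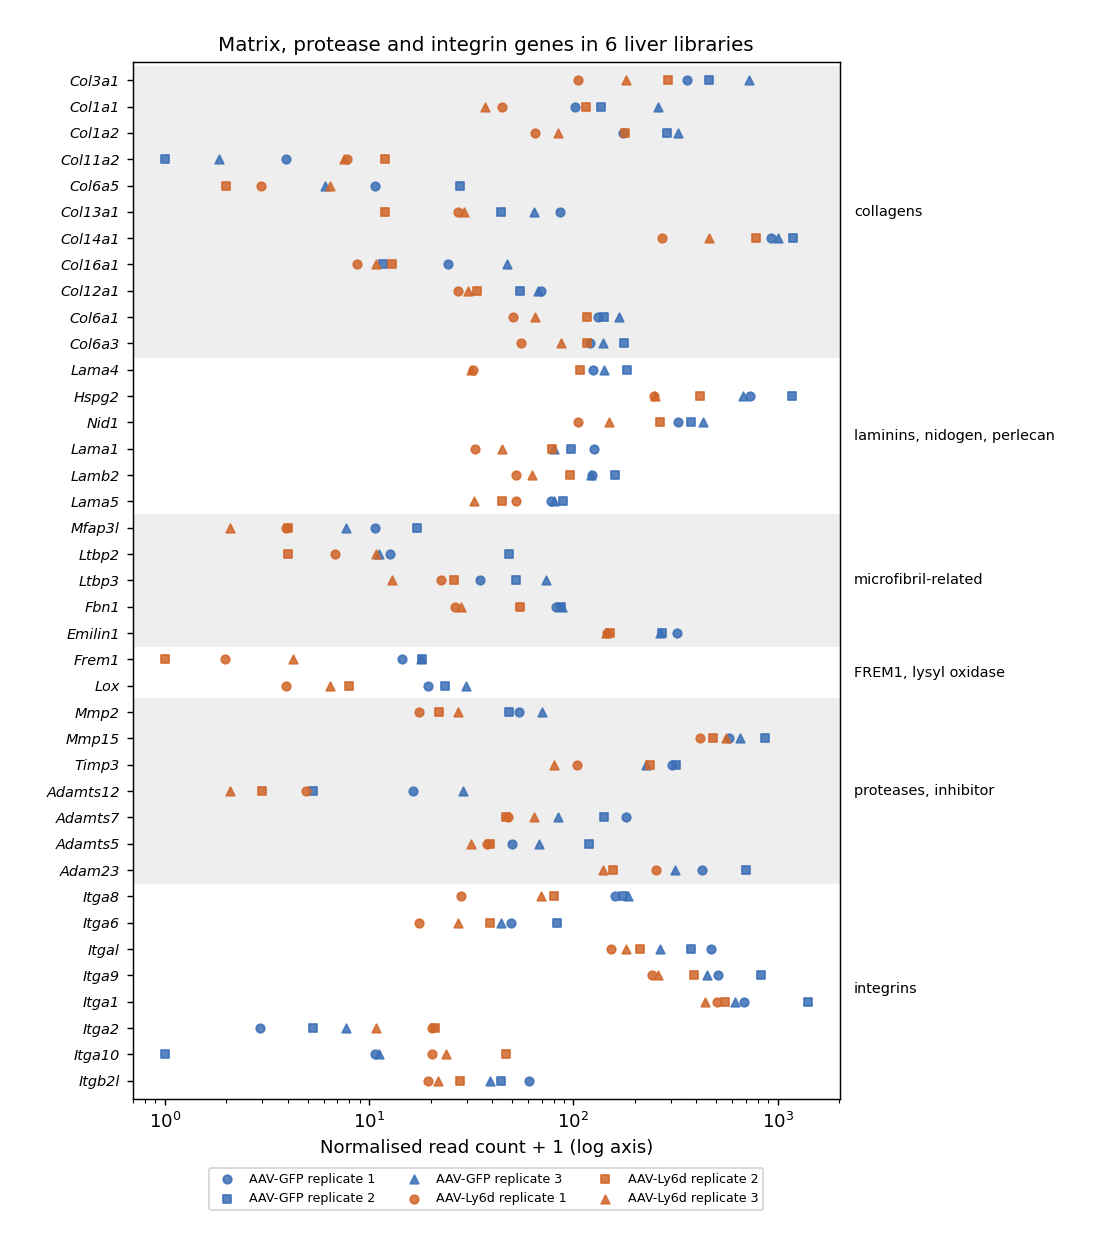
Normalised read count plus 1 (log axis) of each of the 39 genes in the 3 AAV-GFP (blue) and 3 AAV-Ly6d (orange) libraries, grouped by the role of the gene; marker shapes stand for the replicate number. The 2 groups are apart for 34 genes (31 lower and 3 higher in AAV-Ly6d) and overlap for 5. Of all tested genes, 49.3% are apart with AAV-Ly6d lower and 35.2% with it higher. Levels of different genes are not corrected for transcript length.

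Since 36 of these genes were lower together, the stretches before their start sites are shown for 4 that fell with a range of roles, a fibrillar collagen pair, perlecan and emilin, and for the integrin chain Itga2, which rose. The sequences are RefSeq promoters on GRCm38.p6, the 250 bases before the RefSeq start, written 5′ to 3′ on the strand of the gene. Capitals mark every match, on either strand, to the CCAAT box (CCAAT), the TATA box (TATAAA), the GC box (GGGCGG), the CAGA box known from SMAD binding (CAGAC) and the AP-1 site (TGANTCA). The windows are chr6:4505368-4505617 (plus strand) for Col1a2, chr1:45311288-45311537 (plus) for Col3a1, chr4:137468553-137468802 (plus) for Hspg2, chr5:30913536-30913785 (plus) for Emilin1 and chr13:114932101-114932350 (minus) for Itga2.
Col1a2: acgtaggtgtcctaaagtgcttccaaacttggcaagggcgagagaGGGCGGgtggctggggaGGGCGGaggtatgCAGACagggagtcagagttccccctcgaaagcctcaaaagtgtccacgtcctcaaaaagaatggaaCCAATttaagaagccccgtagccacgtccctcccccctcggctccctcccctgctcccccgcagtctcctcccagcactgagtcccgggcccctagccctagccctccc
Col3a1: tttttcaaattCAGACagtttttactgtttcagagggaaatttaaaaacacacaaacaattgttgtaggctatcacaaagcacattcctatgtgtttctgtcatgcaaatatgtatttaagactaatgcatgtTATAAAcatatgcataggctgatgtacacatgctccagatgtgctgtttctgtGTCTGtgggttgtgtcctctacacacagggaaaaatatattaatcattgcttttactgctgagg
Hspg2: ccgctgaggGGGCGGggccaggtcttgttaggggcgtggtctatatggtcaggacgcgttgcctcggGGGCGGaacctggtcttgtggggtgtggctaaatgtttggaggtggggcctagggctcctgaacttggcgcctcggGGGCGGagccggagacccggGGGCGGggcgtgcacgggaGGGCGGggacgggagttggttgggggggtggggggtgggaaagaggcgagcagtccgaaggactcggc
Emilin1: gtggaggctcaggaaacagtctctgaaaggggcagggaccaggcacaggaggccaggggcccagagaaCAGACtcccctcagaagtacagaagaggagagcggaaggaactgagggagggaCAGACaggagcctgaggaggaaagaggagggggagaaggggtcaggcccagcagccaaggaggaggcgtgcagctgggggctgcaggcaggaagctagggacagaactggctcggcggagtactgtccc
Itga2: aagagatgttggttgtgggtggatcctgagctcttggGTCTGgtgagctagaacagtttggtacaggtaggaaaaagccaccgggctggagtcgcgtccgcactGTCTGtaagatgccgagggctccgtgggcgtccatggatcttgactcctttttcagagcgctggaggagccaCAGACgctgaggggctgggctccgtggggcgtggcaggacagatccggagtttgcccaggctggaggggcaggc
The Hspg2 window held 5 GC boxes and no other match, and the Col3a1 window was the only one of these with a TATA box. The CAGA box was found in the windows of Col1a2, Col3a1, Emilin1 and Itga2. The 5′ end that the GENCODE annotation gives lies 804 bases from the RefSeq start in Col1a2, 384 in Emilin1, 34 in Hspg2 and 0 in Col3a1 and Itga2.

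A RefSeq window whose start lay within 5000 bases of the GENCODE 5′ end was found for 27 of the 39 genes, of which 24 were lower in AAV-Ly6d. Across these 24 windows no searched motif was common to all. The GC box was in 11 (45.8%, against 32.7% of the 32851 promoter windows in the RefSeq table) and the CAGA box also in 11 (45.8% against 42.2%). CCAAT was in 3 (12.5% against 33.8%), the TATA box in 2 (8.33% against 12.4%) and the AP-1 site in 1 (4.17% against 6.75%). Matches of different motifs may share bases, and a match is a run of letters, not a bound site.

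The fibrillar collagens I and III, the main fibres of scar tissue, were lower in every AAV-Ly6d library than the AAV-GFP mean, but with a wide spread. Col3a1, which encodes the chain of type III collagen (chromosome 1, 45311538 to 45349706), stood at 361, 458 and 722 in AAV-GFP and at 104, 290.0 and 179.5 in AAV-Ly6d. The groups did not overlap, and Col3a1 fell with a log2 fold change of -1.48 (SE 0.41; limma, adjusted p = 0.0401). Col1a2, the second chain of type I collagen (chromosome 6, 4504814 to 4541544), stood at 173, 287 and 325 against 64.2, 177 and 82.7. AAV-Ly6d replicate 2 lay just above AAV-GFP replicate 1, and Col1a2 fell by 1.36 on the log2 scale (SE 0.42; limma, adjusted p = 0.0434). Col1a1, the partner chain (chromosome 11, 94936224 to 94953042), read 101, 136 and 259 against 43.7, 115 and 35.9. Here too AAV-Ly6d replicate 2 reached into the range of AAV-GFP, and the log2 fold change of -1.41 (SE 0.52) did not pass (limma, adjusted p = 0.0528).

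The proportions of the chains differed between the groups by less than the spread of the libraries. Col1a1 was 0.617 ± 0.166 of Col1a2 in the control group and 0.587 ± 0.134 in AAV-Ly6d (mean ± SD of the ratio of values, n = 3 each; exact two-sided permutation test, p = 0.9, where the smallest possible is 0.1). Col3a1 was 1.97 ± 0.33 and 1.81 ± 0.31 times Col1a2 (SD, n = 3; exact permutation test, p = 0.8). A test of this size cannot show that the proportions are alike. Together the 3 genes of collagens I and III summed to 22.5, 61.9 and 31.7% of the AAV-GFP mean in the AAV-Ly6d libraries, with AAV-Ly6d replicate 2 the highest of the 3.

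Col11a2, a fibrillar collagen chain best known from cartilage, went the other way. It stood at 2.90, 0 and 0.844 in AAV-GFP and at 6.80, 11 and 6.53 in AAV-Ly6d. It rose with a log2 fold change of 2.20 (SE 0.65; limma, adjusted p = 0.0414), on only 4 reads in all in AAV-GFP and 24 in AAV-Ly6d. At such counts the size of the change depends on the added constant: with 5 in place of 1 the log2 fold change was 1.08.

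Among the non-fibrillar collagens 4 of 7 fell and 3 did not pass, beside 28.0% of all tested genes that fell. Col14a1, a collagen that sits on the surface of fibrils (chromosome 15, 55307750 to 55520803), had the highest level per kilobase of all 39 genes in AAV-GFP, 161 per kb of its longest transcript. Its values were 929.8, 1193 and 998 in AAV-GFP and 271, 784 and 458 in AAV-Ly6d, without overlap, and it fell by 1.17 on the log2 scale (SE 0.36; limma, adjusted p = 0.0425). Col12a1, a collagen of the same fibril-associated kind, stood at 68.7, 53.8 and 65.8 against 26.2, 32.9 and 29.4. Its libraries were close together within each group, and it fell by 1.06 (SE 0.31; limma, adjusted p = 0.0409). Col13a1, a collagen anchored in the cell membrane, read 85.1, 43.0 and 63.3 against 26.2, 11 and 28.3 and fell by 1.56 on the log2 scale (SE 0.47; limma, adjusted p = 0.0414).

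Type VI collagen, which forms beaded filaments around cells, was represented by 3 chains. Col6a1 stood at 131, 141 and 166 in AAV-GFP and at 49.6, 116 and 64.2 in AAV-Ly6d, and it fell by 1.01 (SE 0.35; limma, adjusted p = 0.0498). The groups did not overlap, with AAV-Ly6d replicate 2 nearest to AAV-GFP. Col6a3 had a log2 fold change of -0.81 (SE 0.34; -0.52 without AAV-Ly6d replicate 1) that did not pass (limma, adjusted p = 0.0626). Its ratio to Col6a1 was 1.00 ± 0.22 in the control group and 1.15 ± 0.17 in AAV-Ly6d (SD, n = 3; exact permutation test, p = 0.4). Col6a5 and the fibril-associated Col16a1 were low, with AAV-GFP values of 5.06 to 26.9 and 10.8 to 46.4, and neither passed (limma, adjusted p = 0.0569 and 0.0800).

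Basement membrane genes were lower in every AAV-Ly6d library: the groups did not overlap for any of the 6, 5 fell and 1 did not pass. Of all tested genes 49.3% were lower without overlap and 28.0% fell. Hspg2 encodes perlecan, the large heparan sulfate proteoglycan that binds growth factors in basement membranes (chromosome 4, 137468769 to 137570630). It stood at 732, 1169.7 and 674 in AAV-GFP and at 248, 417 and 250.2 in AAV-Ly6d. The highest AAV-Ly6d library was well below the lowest AAV-GFP library, and Hspg2 fell by 1.49 on the log2 scale (SE 0.30; limma, adjusted p = 0.0287), the smallest adjusted p of the 39 genes. It was still called by limma when any single AAV-GFP library or AAV-Ly6d replicate 2 was left out, and not when AAV-Ly6d replicate 1 or 3 was.

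Nid1, or nidogen, links the laminin network to that of type IV collagen (chromosome 13, 13437551 to 13512269). It stood at 325, 376 and 430.4 against 104, 263 and 148, without overlap, and fell by 1.23 (SE 0.35; limma, adjusted p = 0.0405). Lama4, the laminin chain typical of vessel walls (chromosome 10, 38965515 to 39110188), read 124, 182 and 140.1 in AAV-GFP and 31.1, 107 and 30.5 in AAV-Ly6d. AAV-Ly6d replicate 2 was well above the other libraries of its group, and Lama4 fell by 1.63 (SE 0.50; limma, adjusted p = 0.0418). Lama5, the chain of many mature basement membranes, stood at 76.4, 88.2 and 79.3 against 51.5, 43.8 and 31.6 and fell by 0.95 (SE 0.31; limma, adjusted p = 0.0462).

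Lamb2, a beta chain that pairs with Lama4 and Lama5 in laminin trimers, fell by 0.97 on the log2 scale (SE 0.32; limma, adjusted p = 0.0464), from values of 121 to 158 to values of 51.5 to 95.7. Lama1, the chain of early embryonic laminin, ranged from 79.3 to 125 in AAV-GFP and from 32.1 to 77.7 in AAV-Ly6d and did not pass (limma, adjusted p = 0.0557). The 6 genes together reached 30.5, 59.0 and 33.3% of the AAV-GFP mean in the AAV-Ly6d libraries. The ratio of Nid1 to Hspg2 was 0.468 ± 0.160 in AAV-GFP and 0.547 ± 0.113 in AAV-Ly6d, and that of Lama4 to Nid1 was 0.397 ± 0.081 and 0.303 ± 0.10 (SD, n = 3 each; exact permutation test, p = 0.7 and 0.3). Chains of type IV collagen, the other main network of basement membranes, were not analysed here.

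Among genes of elastic fibres and microfibrils 4 of 5 fell, beside 28.0% of all tested genes. Emilin1 encodes a glycoprotein at the border of elastin and microfibrils (chromosome 5, 30913402 to 30921277) and had the tightest AAV-Ly6d libraries of this group. It stood at 322, 271 and 263 in AAV-GFP and at 146, 149 and 144 in AAV-Ly6d. Every AAV-Ly6d value was near 51.2% of the AAV-GFP mean, and Emilin1 fell by 0.95 (SE 0.21; limma, adjusted p = 0.0324). Fbn1, which encodes fibrillin, the main protein of microfibrils, read 81.3, 86.1 and 86.9 against 25.3, 53.8 and 27.2. Its AAV-GFP libraries were nearly equal while AAV-Ly6d replicate 2 stood above the others of its group, and Fbn1 fell by 1.32 (SE 0.37; limma, adjusted p = 0.0401).

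Latent TGF-beta binding proteins store inactive TGF-beta in the matrix. Ltbp3 stood at 33.9, 51.7 and 72.6 in AAV-GFP and at 21.4, 24.9 and 12 in AAV-Ly6d, and it fell by 1.39 (SE 0.44; limma, adjusted p = 0.0435). Ltbp2, a relative that binds fibrillin and not TGF-beta, was at 10.1 to 47.3 against 2.99 to 9.79 and did not pass (limma, adjusted p = 0.0680). Mfap3l, a membrane protein taken by its name, stood at 9.68, 16.1 and 6.75 against 2.92, 2.99 and 1.09. It fell by 1.81 (SE 0.55; limma, adjusted p = 0.0414) on 33 reads in AAV-GFP and 7 in AAV-Ly6d. With 5 as the added constant its log2 fold change was -1.08.

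The steepest drops were in genes with few reads. Frem1 encodes a secreted protein that anchors epithelia to the basement membrane (chromosome 4, 82897920 to 83052339). It stood at 13.5, 17.2 and 16.9 in AAV-GFP and at 0.972, 0 and 3.26 in AAV-Ly6d, which is 50 reads against 4. The groups were far apart, and Frem1 fell by 3.05 (SE 0.62; limma, adjusted p = 0.0298), or a log2 fold change of -1.73 with 5 as the added constant. Lox, the lysyl oxidase that cross-links collagen and elastin, read 18.4, 22.6 and 28.7 against 2.92, 6.98 and 5.44. Every AAV-GFP library was above every AAV-Ly6d library, with 74 reads against 15, and Lox fell by 2.03 (SE 0.46; limma, adjusted p = 0.0324).

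None of the protease genes among the 39 was higher in AAV-Ly6d. All 7 genes named as proteases or their inhibitor were lower by the fitted value, 5 fell and 2 did not pass. Of all tested genes 60.7% were lower and 28.0% fell. Mmp2, a secreted gelatinase that stellate cells make (chromosome 8, 92827291 to 92853420), stood at 53.2, 47.3 and 69.2 in AAV-GFP and at 16.5, 20.9 and 26.1 in AAV-Ly6d. It fell by 1.38 (SE 0.35; limma, adjusted p = 0.0351) without overlap. Mmp15, a metalloproteinase anchored in the membrane, had the second highest level per kilobase of the 39 genes in AAV-GFP (136 per kb) and the smallest difference. Its values were 574, 869 and 654 against 415, 480.3 and 555, and the log2 fold change of -0.52 (SE 0.23) did not pass (limma, adjusted p = 0.0643).

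Timp3, the inhibitor that stays bound to the matrix, stood at 304, 319 and 225 in AAV-GFP and at 103, 235 and 79.4 in AAV-Ly6d. AAV-Ly6d replicate 2 lay within the AAV-GFP range, and Timp3 fell by 1.16 (SE 0.41; limma, adjusted p = 0.0497). Adamts7, an enzyme that cuts the cartilage protein COMP, read 181, 141 and 82.7 against 46.7, 45.8 and 63.1 and fell by 1.31 (SE 0.36; limma, adjusted p = 0.0398). Its relative Adamts12 stood at 15.5, 4.30 and 27.8 against 3.89, 1.99 and 1.09, so that AAV-GFP replicate 2 was close to the AAV-Ly6d libraries. Adamts12 fell by 2.12 (SE 0.72; limma, adjusted p = 0.0473) on 53 reads against 7, and with 5 as the added constant the log2 fold change was -1.35 and did not pass (limma, adjusted p = 0.0528).

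Adamts5, which cuts the proteoglycans aggrecan and versican, stood at 49.3, 118 and 66.7 in AAV-GFP and at 36.9, 37.9 and 30.5 in AAV-Ly6d. The groups did not overlap but the AAV-GFP libraries spread widely, and its log2 fold change of -1.04 (SE 0.39) did not pass (limma, adjusted p = 0.0540). Adam23, an ADAM protein without an active protease site (chromosome 1, 63445891 to 63596276), read 426, 703 and 315 against 252, 154 and 139. It fell by 1.37 (SE 0.36; limma, adjusted p = 0.0373). The 6 MMP, ADAMTS and ADAM genes together made up 52.6, 50.6 and 55.6% of their AAV-GFP mean in the AAV-Ly6d libraries, a narrow range in which AAV-Ly6d replicate 2 was the lowest.

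Integrin chains were found on both sides of 0: 4 of 8 fell, 1 rose and 3 did not pass, beside 28.0% and 15.9% of all tested genes that fell and rose. Itga8, a chain that recognises RGD motifs and is found on stellate cells and other mesenchymal cells (chromosome 2, 12106632 to 12301922), stood at 159.6, 173 and 183 in AAV-GFP and at 27.2, 79.7 and 68.5 in AAV-Ly6d. The groups were far apart, and Itga8 fell by 1.67 (SE 0.42; limma, adjusted p = 0.0351). Npnt, its ligand nephronectin and no member of the 39, fell by 1.48 (SE 0.38; limma, adjusted p = 0.0351). Itga9, a receptor for tenascin C and other ligands, read 507, 824 and 449.8 against 242, 389.7 and 258 and fell by 0.98 (SE 0.30; limma, adjusted p = 0.0420).

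Itgal, the alpha chain of the leukocyte integrin LFA-1 (chromosome 7, 127296260 to 127335138), stood at 471, 377 and 266 in AAV-GFP and at 152, 211 and 179.5 in AAV-Ly6d. It fell by 1.01 (SE 0.28; limma, adjusted p = 0.0398). Itgb2l, which resembles the leukocyte beta chain Itgb2, read 60.0, 43.0 and 38.0 against 18.5, 26.9 and 20.7 and fell by 1.05 (SE 0.36; limma, adjusted p = 0.0475). Both genes kept the groups apart. Of the immune cell markers listed, 0 of 13 macrophage and 0 of 11 lymphocyte and neutrophil markers were analysed here, so these leukocyte genes stand without marker values of their cells.

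The collagen-binding integrin chains went in different directions. Itga1, the main collagen receptor chain here by level per kilobase (82.2 per kb in AAV-GFP; chromosome 13, 114953096 to 115101964), stood at 683, 1401 and 620.2 against 502, 550.1 and 438. AAV-GFP replicate 2 was well above the rest of its group, and the log2 fold change of -0.76 (SE 0.32) did not pass (limma, adjusted p = 0.0619) and was -0.40 without that library. Itga2, its neighbour 20995 bases away on the same strand (chromosome 13, 114833081 to 114932100), stood at 1.94, 4.30 and 6.75 in AAV-GFP and at 19.4, 19.9 and 9.79 in AAV-Ly6d. It rose by 1.75 (SE 0.55; limma, adjusted p = 0.0433), on 14 reads against 49.

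Itga10, a collagen receptor chain of cartilage, ranged from 0 to 10.1 in AAV-GFP and from 19.4 to 45.8 in AAV-Ly6d, with 22 reads against 87. The groups did not overlap, but its log2 fold change of 2.53 (SE 0.94) did not pass (limma, adjusted p = 0.0539). It was 1.38 without AAV-GFP replicate 2, the library at 0, and 1.65 with 5 as the added constant, where it passed (limma, adjusted p = 0.0458). The mean log2 ratio of Itga2 to Itga1 was -7.41 in AAV-GFP and -4.90 in AAV-Ly6d, a difference of 2.52 (n = 3 each; exact two-sided permutation test, p = 0.1, the smallest this design can give). Each gene already kept the groups apart, in opposite directions, so the ratio had to do so too. This p-value was fixed beforehand and adds nothing to the values of Itga1 and Itga2. Itga6, a laminin receptor chain, stood at 43.0 to 81.8 against 16.5 to 37.9 and did not pass (limma, adjusted p = 0.0572).

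**Figure D3:**
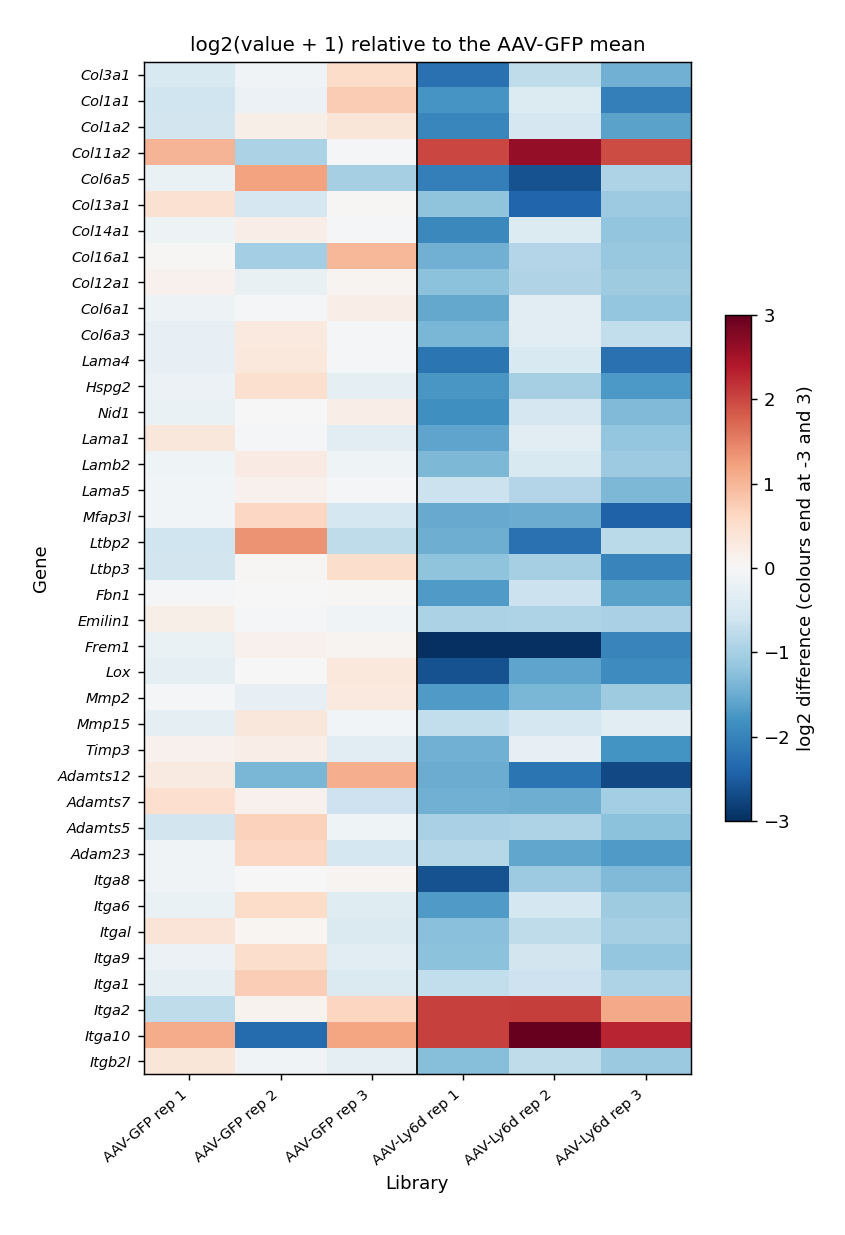
Difference of log2(value + 1) from the AAV-GFP mean for each of the 39 genes (rows) in each library (columns), blue for lower and red for higher. AAV-Ly6d replicate 2 is paler than replicates 1 and 3 in most collagen, laminin and integrin rows, and Col11a2, Itga2 and Itga10 are red in all 3 AAV-Ly6d libraries.

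The AAV-Ly6d libraries did not differ from AAV-GFP to the same extent. Relative to the AAV-GFP mean, the median log2 difference of the 39 genes was -1.44 in replicate 1, -0.76 in replicate 2 and -1.16 in replicate 3. Over all tested genes it was -0.63, -0.57 and -0.58. AAV-Ly6d replicate 2 was the highest library of its group in 26 of the 36 genes with a lower fitted value (72.2%), and in 40.1% of the 1062 lower tested genes without ties. It was the highest in 13 of the 16 lower collagen, laminin, nidogen and perlecan genes and in 6 of the 6 lower integrin chains, but in 7 of the 14 others. In AAV-GFP, replicate 2 was the highest in 17 of the 36 (47.2%).

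Markers of the cells that make matrix were lower too. Of the stellate cell and fibroblast markers, 7 of 17 were analysed here, 4 fell and 3 did not pass, beside 28.0% of all tested genes that fell. Lrat, the enzyme that stores vitamin A in stellate cells, fell by 1.75 (SE 0.34; limma, adjusted p = 0.0287), and Hgf, a growth factor that stellate cells release, fell by 1.72 (SE 0.30; limma, adjusted p = 0.0272). The summed level of the 7 markers was 3191 to 4598 in AAV-GFP and 972 to 2044 in AAV-Ly6d, and the AAV-Ly6d mean was 40.2% of the AAV-GFP mean. In the AAV-Ly6d libraries the sum was 26.1, 54.8 and 39.9% of the AAV-GFP mean, the same order of libraries as for collagens I and III. The endothelial markers below (32.5, 37.4 and 33.0%), the 6 basement membrane genes and the integrins had that order too. It is therefore not particular to stellate cell markers.

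Of the endothelial markers, 10 of 17 were analysed here and all 10 fell, beside 28.0% of all tested genes. Among them the VEGF receptor Kdr fell by 1.88 (SE 0.25; limma, adjusted p = 0.0141). The sum of the 10 markers was 8168 to 12048 in AAV-GFP and 3262 to 3748 in AAV-Ly6d, 34.3% of the AAV-GFP mean. No marker of either list was at 0 in any library. Hepatocyte markers, 5 of 10 analysed here, gave 3 that rose (Tat, Hnf4a and Apoa1), beside 15.9% of all tested genes. The 2 that did not pass were Serpina1a (log2 fold change 0.41) and Apob (-0.61). Their sum was 331782 to 835348 in AAV-GFP and 421017 to 454933 in AAV-Ly6d, so the groups overlapped. In AAV-GFP replicate 2, Apob was at 743167, against 201516 and 186314 in replicates 1 and 3. Tat and Apoa1 had their lowest values in that library. The bile duct marker Sox9, 1 of 9, rose by 1.38 (SE 0.34; limma, adjusted p = 0.0351), and the mesothelial marker Msln, 1 of 6 on its list with smooth muscle, was at 5.81 to 20.3 in AAV-GFP and at 0, 0 and 2.18 in AAV-Ly6d. The part of these markers in the matrix results was not tested.

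**Figure D4:**
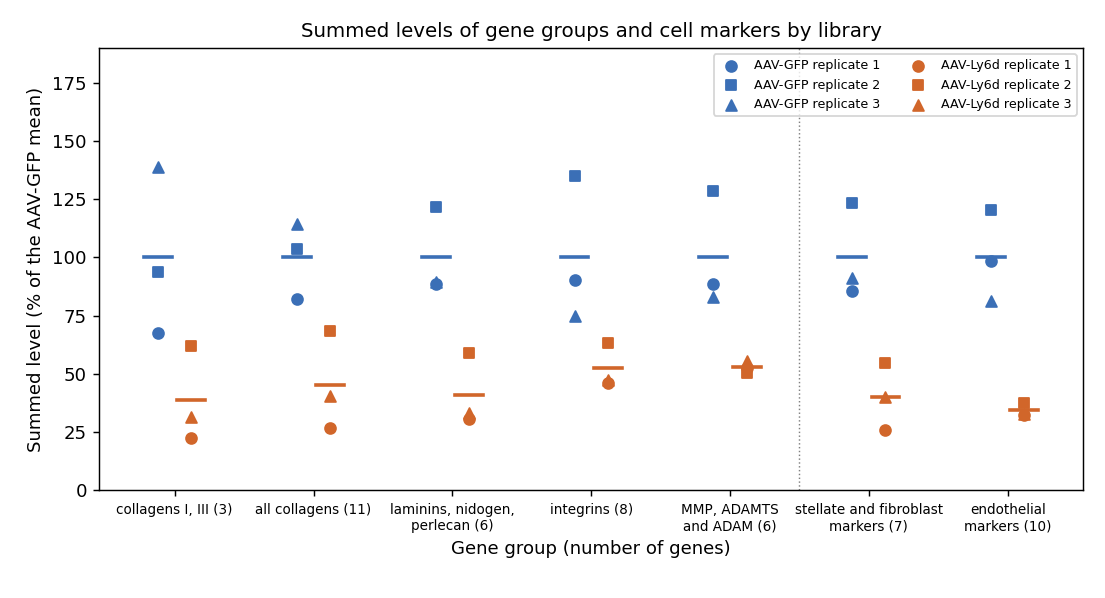
Summed normalised read counts of 5 gene groups and of 2 lists of cell markers in each library, as a percentage of the AAV-GFP mean (horizontal bars: group means). All AAV-Ly6d sums lie below all AAV-GFP sums, and AAV-Ly6d replicate 2 is the highest of its group in each set other than the MMP, ADAMTS and ADAM genes.

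Of 68 listed matrix glycoproteins and proteoglycans outside the symbol rule, 21 were analysed here, 14 fell, 1 rose and 6 did not pass. The shares over all tested genes were 28.0% that fell and 15.9% that rose. The smallest p-values of the 21 were those of Vwf, the clotting factor carrier made by endothelium (log2 fold change -2.15), Reln, the reelin that stellate cells secrete (-1.54), and Fndc1 (-2.27). The gene that rose was Sdc4, a heparan sulfate proteoglycan of the cell surface (0.52; limma, adjusted p = 0.0433). Reln, Vwf and Lum, a further gene of this list, also stand on the marker lists above. The summed level of the 21 genes went the other way from their count: it was 16555 to 17023 in AAV-GFP and 17496 to 19282 in AAV-Ly6d, and Sdc4 alone had group means of 7172 and 10302.

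Of 18 listed collagen and hyaluronan receptors, 5 were analysed here and all 5 fell, beside 28.0% of all tested genes. The 5 receptors are the sinusoidal scavenger receptors Stab2 (log2 fold change -1.30) and Stab1 (-1.51), the mannose receptor Mrc1 (-1.06), the collagen-sensing kinase Ddr2 (-1.53) and Cd36 (-1.34). Stab1 and Stab2 are also among the endothelial markers. The list for collagen synthesis and processing gave 1 of 22, the transglutaminase Tgm2, with a log2 fold change of -0.39 that did not pass (limma, adjusted p = 0.0634).

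Of 34 listed proteins that tie integrins to the cytoskeleton, 8 were analysed here, 3 fell, 2 rose and 3 did not pass, which is near the shares over all tested genes (28.0% and 15.9%). The talin genes Tln2 and Tln1 and the filamin gene Flna fell (log2 fold changes -1.41, -0.65 and -0.98), while the tensin Tns2 rose by 0.81 and Sorbs3, or vinexin, by 1.74. The summed level of the 8 genes in AAV-Ly6d was 98.9% of that in AAV-GFP. Of 28 plasminogen system, cathepsin and other protease genes, 6 were analysed here, of which 1 fell, 1 rose and 4 did not pass. Of all tested genes 28.0% fell and 15.9% rose. The lysosomal cathepsin Ctsl rose by 0.84 and the peptidase Dpp4 fell by 0.63. Mme had a log2 fold change of -1.37 that did not pass (limma, adjusted p = 0.0539). The summed level of the 6 genes was 12310 to 15206 in AAV-GFP and 15595 to 17526 in AAV-Ly6d. Ctsl alone had group means of 7671 and 13774.

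TGF-beta is the main growth factor that drives collagen genes in stellate cells, and 5 of the 22 genes listed for its pathway were analysed here. Of the 5, 2 fell, 1 rose and 2 did not pass, where 28.0% of all tested genes fell and 15.9% rose. The co-receptor Tgfbr3 fell (log2 fold change -0.98), as did Pmepa1 (-1.21), while Smad7 rose by 0.84. The activity of the pathway was not tested. Tgfbr2 and Inhba had log2 fold changes of -0.51 and -1.20 and did not pass (limma, adjusted p = 0.0552 and 0.0616). The ligands named Tgfb were not analysed here.

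Transcript length ran along with the direction of change in this table. The median length of the longest annotated transcript was 6046 bases for the 39 genes and 3622 for all tested genes. The tested genes were split by length into 4 bins of like size. In the bin of the shortest transcripts, up to 2247 bases, the median log2 fold change was 0.59, and in that of the longest (5564 to 27908 bases) it was -0.84 for the 420 genes outside the 39. In the longest bin the 25 matrix, protease and integrin genes had a median of -1.32. From 3623 to 5546 bases the medians were -1.09 for 11 of the 39 and -0.76 for 433 others. The median of the 39 was thus below that of the rest in both bins that hold most of them. Medians of the others mix directions: 69.7% of them were lower in this bin and 88.1% in the longest. Here 7 of the 11 fell, beside 31.6% of the others, and in the longest bin 16 of the 25, beside 39.0%. Both shares are above the 28.0% over all tested genes. The part of length in the fold changes was not tested.

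**Figure D5:**
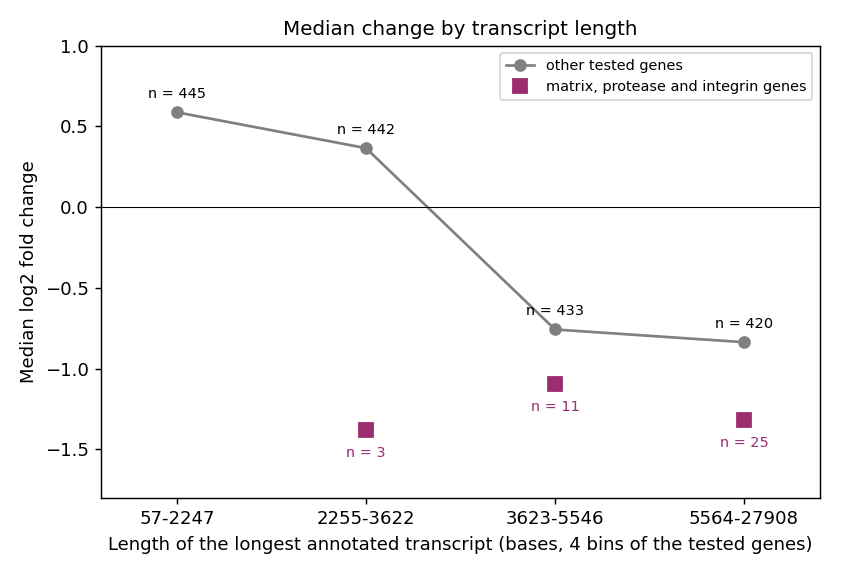
Median log2 fold change (AAV-Ly6d against AAV-GFP) in 4 bins of the tested genes by length of the longest annotated transcript, for the 39 genes (squares) and the other tested genes (circles and line), with the number of genes beside each point. Other genes go from 0.59 in the shortest bin to -0.84 in the longest, and the squares lie below the circles in each bin that holds any of the 39 genes.

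Reads of 11 of the 39 genes could include those of another gene, because their exons overlap in the annotation and no source used here gives the strand setting of the counting. The longest overlaps are those of Fbn1 with Gm9913 (2442 bases, opposite strand), Itga10 with Gm42957 (1739 bases, same strand) and Timp3 with Syn3 (1733 bases, opposite strand). Shorter ones concern Adamts7, Col3a1, Itga1, Itga8, Lox, Ltbp2, Ltbp3 and Nid1. In 16 of the 39 genes a group had fewer than 100 reads over its 3 libraries, and the fold changes of these genes are the least precise.

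The scale of the comparison rests on the normalisation of the deposited values. When each library was rescaled by its median ratio over the table, the median of all tested genes rose by 0.34 to -0.33 and that of the 39 genes was -0.84. Then 11 of the 39 fell and 3 rose, and of all tested genes 290 fell and 651 rose, where the deposited scale gave 499 and 283. No tested gene changed direction. The table was read as a choice of genes that differ, so a shift of 0.34 had little scope to turn a sign. Among the 39 the smallest change on the deposited scale was -0.52 (Mmp15). Called genes whose value moved by more than 1.5 times were Itga9 (-0.64), Itgal (-0.67), Lama5 (-0.61), Lamb2 (-0.63), Emilin1 (-0.61) and Col6a1 (-0.67), and none of these 6 passed after rescaling (limma, adjusted p from 0.0627 to 0.132). Of those that had not passed, Mmp15 (-0.18), Itga1 (-0.42) and Col6a3 (-0.47) moved by more than that too.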

How the data were processed

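Normalised read counts of liver RNA were deposited by the authors for 1834 genes in 6 libraries, 3 per group, as a signal that is never negative. Per the submitters' processing notes, Bowtie 0.12.2 and the build mm10 are named, in a role not stated. No source used here gives the counter, annotation, strand setting, normalisation tool or the rule that chose the genes. In each deposited column 100% of values lay within 0.001 of a whole multiple of a step (0.844 to 1.09), taken as 1 read. The reads recovered this way summed to 3248078 to 4359932 per library, which is part of the depth, and served DESeq2 and edgeR. The step of AAV-Ly6d replicate 2 is near 1.

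Genes were matched to GENCODE M21 on GRCm38, the mm10 assembly, for symbols, coordinates and lengths. A linear model with a mean-variance trend (limma 3.58.1, R 4.3.3) and no covariates was fitted to log2(value + 1). The 1780 genes that reached 1 in 3 or more libraries were tested. Benjamini-Hochberg adjustment ran over these genes, with calls at an adjusted p under 0.05. The log2(value + 1) scale can understate the change of low genes, as for Frem1 (-3.05 against -3.53 by DESeq2). For Itga10, with a library at 0, it gave the larger change (2.53 against 2.14 by DESeq2). Alternatives were edgeR 4.0.16 (quasi-likelihood) and DESeq2 1.42.0, both keeping the deposited scale, an adjustment over 55450 annotated genes with genes outside the table set to a p of 1, other filters and constants, median-ratio rescaling, no trend, a replicate block and each library left out. The tests were tried on simulated data.

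The genes, the other lists and the marker lists were chosen with earlier results of these data known. Values per library are given for the 4 genes with the smallest p in each role class, for all that rose and for called genes whose mean reached the median of the tested genes (209). From the other lists the 3 genes with the smallest p are named. Itga1 values per library and other names (Npnt, Sdc4, Lum, the remaining receptors, adaptors and pathway genes, and the markers) were chosen after their values were seen.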

Additional observations from a re-analysis of the deposited data

How the results depend on the processing

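The median log2 fold change of the 39 genes stayed between -1.35 and -1.06 when single libraries were left out, and was -0.84 after rescaling by the median ratio. The number of the 39 called was less stable. With single libraries left out it ranged from 0 to 16 in all, from 0 to 16 for genes that fell, and was 0 for genes that rose, while all tested genes gave 0 to 607 calls. Rescaling called 14 (11 fell), edgeR 15 (all fell, 0 rose; 465 of all tested genes), and DESeq2 1347 of all tested genes, with 36 of the 39. Adjusted over the annotation, limma called 0 of the 39 and 1 of all tested genes, and DESeq2 2 (2 fell, 0 rose) and 124. The filter on values of at least 10 in 3 libraries kept 34 of the 39. It left out both genes that rose, so its 0 for genes that rose is no test of them. It called 23 of the 34, beside 639 of the 1597 genes tested with that filter. With a replicate block, limma called 1 of the 39 (Hspg2, 1 fell and 0 rose) and 48 of all tested genes. In that fit 35 of the 39 had an unadjusted p under 0.05, a count without the share over all tested genes beside it. Same-numbered libraries did not deviate together over the tested genes (correlations -0.0199, -0.0475 and -0.0581). That cannot show whether they were prepared together, and the labels give no batch. Other constants, no filter and the fit without trend called 21 to 26 of the 39, beside 548 to 738 of all tested genes. The fitted fold changes of the 39 genes kept their sign under every alternative in which they were tested. This is a weak test, because the table was read as a choice of genes that differ. In limma the replicate block, the fit without trend and the larger adjustment also leave the fold changes as they are. Across all tested genes rescaling turned the balance of calls, from 499 that fell and 283 that rose to 290 and 651. Marker lists, other lists, chain ratios and length bins were computed only on the deposited scale with all 6 libraries. Genes with few reads limit the precision: 4 had under 10 reads over the AAV-Ly6d libraries. Apart from leaving out a library and the larger adjustment, which give fewer samples or more genes, the cause of these shifts was not tested.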
